A study of Ovis aries with 12 samples.

Results

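The transcripts described are those of 4 interferon-stimulated genes, ISG15, MX1, RSAD2 and OAS2. They were taken from the count tables by their cattle gene identifiers: ENSBTAG00000014707 for ISG15, ENSBTAG00000030913 for MX1, ENSBTAG00000016061 for RSAD2 and ENSBTAG00000014628 for OAS2. All 4 of these identifiers were found among the 24616 genes of the tables, and all 4 passed the filter on low counts over the 12 libraries. The tables carry no gene names, so the symbols were given with the identifiers and could not be checked against the files.

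RNA was sequenced from flash-frozen sheep tissue in 12 libraries. There were 3 each of Co-L and Co-H and 3 each of T-L and T-H, with L for low fertility and H for high fertility. The T libraries carry the label endometrium, which lines the uterus. The Co libraries are labelled ovary, except that Co-H 3 is labelled corpus luteum, a gland that develops from the ovulated follicle and secretes progesterone. In the file headers the 6 Co libraries are named CL. The sources used here do not give the meaning of Co and T, how fertility was scored, or the breed, age, cycle stage or pregnancy status of the animals. The design text describes the samples as pooled and names no separate animals behind the libraries of a group. P-values therefore measure the spread between these samples only, which may be technical. In tissue RNA, fewer cells of a type and less RNA per cell cannot be told apart. The tissue labels could not be checked against marker genes, because no other identifier could be paired with a name.

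Interferons bind receptors on the cell surface and, through kinases and STAT proteins, switch on a shared programme of interferon-stimulated genes, most of which act against viruses. ISG15 is a ubiquitin-like protein that is attached to other proteins. MX1 is a dynamin-like GTPase that blocks virus replication, RSAD2 (viperin) is a radical-SAM enzyme that makes a chain-terminating nucleotide, and OAS2 is an oligoadenylate synthetase whose product activates RNase L. In ruminants the early conceptus secretes interferon tau, which raises such genes in the endometrium and also in the corpus luteum, and they are widely used as a readout of it there.

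Total counts ranged from 12665680 to 17852552 per Co library and from 9627378 to 13934369 per T library. Levels are given in CPM, the field's unit for counts scaled to a common library size, with TMM factors that adjust for library composition. The TMM factors of Co-H 2 and Co-H 3 were 0.977 and 1.00, and those of the other 4 Co libraries were 0.745 to 0.864. MX1, ISG15 and RSAD2 were well covered, with at least 509, 82 and 75 counts in every library. OAS2 had 1 to 8 counts in 5 of the Co libraries, so its values there carry large counting errors. Transcript lengths were not used, so levels are compared between libraries and not between genes.

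ISG15 stood at 23.4, 12.3 and 19.1 CPM in Co-L 1, 2 and 3 and at 34.1, 66.2 and 6.46 CPM in Co-H 1, 2 and 3. In endometrium it stood at 25.1, 28.7 and 27.1 CPM in the T-L libraries and at 49.3, 37.3 and 54.3 CPM in the T-H libraries. Co-H held both the highest and the lowest ISG15 level of all 12 libraries, while the 3 T-H libraries all lay above the 3 T-L libraries.

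MX1 stood at 101, 58.5 and 66.8 CPM in Co-L and at 144, 290 and 40.1 CPM in Co-H. It stood at 128, 112 and 99.9 CPM in T-L and at 101, 141 and 195 CPM in T-H. As for ISG15, Co-H 2 was the highest library of the series and Co-H 3 the lowest, and in endometrium the low and high fertility libraries overlapped.

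RSAD2 stood at 19.3, 10.2 and 13.7 CPM in Co-L and at 18.9, 30.0 and 5.91 CPM in Co-H. It stood at 42.0, 54.8 and 38.6 CPM in T-L and at 51.4, 54.9 and 95.4 CPM in T-H. Every T library lay above every Co library, Co-H 2 included.

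OAS2 was scarce everywhere. It had 8, 1 and 4 counts in the Co-L libraries and 6, 62 and 5 counts in the Co-H libraries. T-L had 62, 21 and 16 counts and T-H had 18, 26 and 20. In CPM this was 0.553, 0.0755 and 0.392 in the Co-L libraries, 0.560, 3.56 and 0.394 in the Co-H libraries, 3.99, 1.22 and 1.43 in T-L, and 1.60, 1.70 and 1.51 in T-H. A count of 1 has an exact 95% Poisson interval of 0.025 to 5.57, and the intervals of the 5 Co libraries other than Co-H 2 overlapped. Co-H 2 and T-L 1 stood apart from the other libraries of their tissues.

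**Figure D1:**
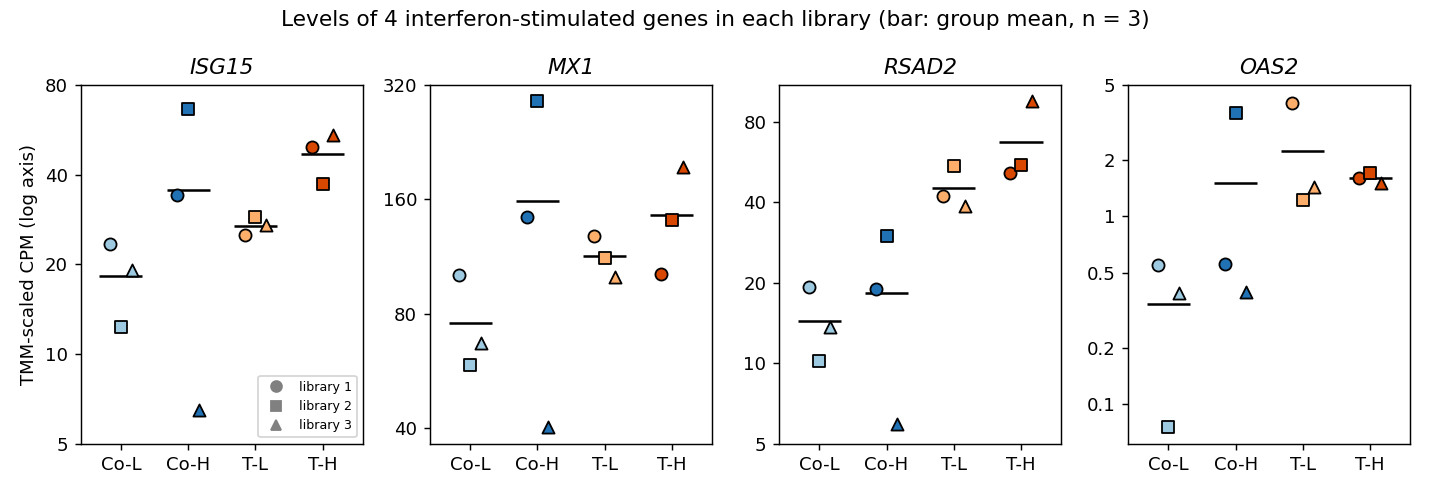
TMM-scaled CPM on a log axis for each of the 4 genes, with 1 point per library, the marker shape giving the library number and the bar the mean of the 3 libraries of a group. For ISG15, MX1 and RSAD2 the Co-H libraries span the widest range, from 6.46 to 66.2 CPM for ISG15, and for RSAD2 all T libraries lie above all Co libraries.

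The first comparison asked whether the genes differed between the endometrium and the Co tissue. RSAD2 was higher in T, at 56.2 ± 20.4 CPM against 16.3 ± 8.42 CPM in Co (SD, n = 6 each), with a fitted log2 change of 1.76 (SE 0.33). Its Benjamini-Hochberg adjusted p in the edgeR quasi-likelihood test was 0.000688. The 3 other genes did not pass. ISG15 stood at 37.0 ± 12.3 CPM in T and 26.9 ± 21.4 CPM in Co, and the log2 difference was 0.48 with a 95% interval of −0.39 to 1.35 (edgeR adjusted p = 0.308). MX1 stood at 130 ± 35.6 and 117 ± 92.4 CPM, and the log2 difference was 0.24 with an interval of −0.56 to 1.04 (edgeR adjusted p = 0.586). OAS2 stood at 1.91 ± 1.03 and 0.922 ± 1.30 CPM, and the log2 difference was 1.36 with an interval of 0.057 to 2.66 (edgeR adjusted p = 0.0636).

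So 1 of the 4 genes was called between the tissues, where 64.4% of the 14839 genes tested were called in either direction and 31.7% were called higher in T. RSAD2 and OAS2 had an unadjusted p under 0.05, as did 67.6% of all genes. RSAD2 was also the 1 gene of the 4 with all T libraries above all Co libraries, as was so for 19.7% of all genes. The ISG15 and OAS2 results turned on Co-H 2: without that library ISG15 had a log2 change of 0.89 (edgeR adjusted p = 0.0492) and OAS2 of 2.20 (edgeR adjusted p = 0.00324). OAS2 also passed without Co-L 1, at 1.74 (edgeR adjusted p = 0.0495), and in DESeq2, at 1.42 (adjusted p = 0.0397). Of all genes tested 60.8% were called without Co-H 2, 62.2% without Co-L 1 and 65.6% in DESeq2. Its difference was 1.07 without T-L 1 (edgeR adjusted p = 0.151). Over the 20 alternatives run the adjusted p ranged from 0.0492 to 0.387 for ISG15, from 0.00324 to 0.151 for OAS2 and up to 0.00348 for RSAD2 (edgeR, DESeq2 and limma-voom). Without Co-H 3, the library labelled corpus luteum, the RSAD2 change was 1.55 and stayed called.

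In the Co tissue the question was whether the genes differed by fertility. None of the 4 was called (edgeR), where 4.78% of all genes were. ISG15 stood at 18.3 ± 5.61 CPM in Co-L and 35.6 ± 29.9 CPM in Co-H (SD, n = 3 each), and the fitted log2 difference was 0.97 with an interval of −0.28 to 2.21 (edgeR adjusted p = 0.282). MX1 stood at 75.4 ± 22.4 and 158 ± 125 CPM, and the log2 difference was 1.07 with an interval of −0.078 to 2.21 (edgeR adjusted p = 0.202). RSAD2 stood at 14.4 ± 4.59 and 18.3 ± 12.0 CPM, and the log2 difference was 0.35 with an interval of −0.67 to 1.37 (edgeR adjusted p = 0.656). OAS2 stood at 0.340 ± 0.243 and 1.50 ± 1.78 CPM, and the log2 difference was 2.16 with an interval of 0.19 to 4.12 (edgeR adjusted p = 0.143). OAS2 was the 1 gene with an unadjusted p under 0.05, as were 28.8% of all genes. The libraries of Co-H and Co-L overlapped for all 4 genes, while 23.1% of all genes showed no overlap.

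The high means in Co-H rested on Co-H 2. Without it the log2 differences between Co-H and Co-L were 0.15 for ISG15, 0.28 for MX1, −0.22 for RSAD2 and 0.46 for OAS2. Co-H 3 lay below every Co-L library for ISG15, MX1 and RSAD2. Without Co-H 3 the differences were 1.46 for ISG15, 1.52 for MX1, 0.77 for RSAD2 and 2.60 for OAS2, with intervals of 0.78 to 2.14 for ISG15 and 0.76 to 2.29 for MX1. All 4 then had an unadjusted p under 0.05, as did 19.2% of all genes, and none passed (edgeR adjusted p = 0.172 to 0.254), where 0 of all 15101 genes passed. No gene of the 4 passed in DESeq2, which called 15.3% of all genes in this contrast, or in limma-voom with quality weights, which called 30.6%. In these fits T and Co share 1 estimate of the spread. The 4 genes spread more in Co than in T, so the intervals may be too narrow for Co. Fitted on the 6 Co libraries alone, the differences were 1.03 for ISG15, 1.13 for MX1 and 0.41 for RSAD2. None passed (edgeR adjusted p = 0.4, 0.307 and 0.662), and 1 of 13502 genes was called. OAS2 did not enter that fit.

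In endometrium none of the 4 genes was called between high and low fertility either (edgeR), and neither was any of the 14839 genes, a share of 0%. Over all genes DESeq2 called 27 (0.182%) and limma-voom 3 (0.0202%), and none of the 4 was among them. None of the 4 had an unadjusted p under 0.05, as 4.1% of all genes did. ISG15 averaged 27.0 ± 1.82 CPM in the T-L libraries and 47.0 ± 8.72 CPM in the T-H libraries (SD, n = 3 each), and the fitted log2 difference was 0.80 with an interval of −0.43 to 2.03 (edgeR adjusted p = 1.0). All 3 T-H libraries were above all 3 T-L libraries for ISG15, as was so in this direction for 5.05% of all genes. The exact permutation test of this difference in log2 CPM gave p = 0.1 (two-sided, n = 3 each), the smallest p that 3 against 3 libraries allow.

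That interval comes from the fit on all 12 libraries, in which T and Co share 1 estimate of the spread. Fitted on the 6 T libraries alone, the ISG15 difference was again 0.80, with an interval of 0.43 to 1.17. Its unadjusted edgeR p was 0.00142, and it did not pass over all genes (edgeR adjusted p = 0.459). In that fit 733 of 14110 genes had an unadjusted p under 0.05 and 1 was called. MX1, RSAD2 and OAS2 had edgeR adjusted p of 0.904, 0.904 and 0.931 there. MX1 averaged 113 ± 14.1 CPM in the T-L libraries and 146 ± 46.8 CPM in the T-H libraries, and RSAD2 at 45.1 ± 8.55 and 67.2 ± 24.5 CPM. Their log2 differences were 0.36 for MX1, with an interval of −0.77 to 1.50, and 0.57 for RSAD2, with an interval of −0.42 to 1.57. OAS2 stood at 2.22 ± 1.54 and 1.60 ± 0.0960 CPM, and the log2 difference was −0.47 with an interval of −2.18 to 1.24. For OAS2 the T-L mean rested on T-L 1, and without that library the difference was 0.26.

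Averaged over both tissues, none of the 4 genes differed between high and low fertility (edgeR), where 0.0202% of all genes did. The log2 difference was 0.88 for ISG15 (SE 0.40, unadjusted p = 0.0479, edgeR adjusted p = 0.255), 0.71 for MX1 (SE 0.37, edgeR adjusted p = 0.302), 0.46 for RSAD2 (SE 0.33, edgeR adjusted p = 0.446) and 0.84 for OAS2 (SE 0.59, edgeR adjusted p = 0.444). ISG15 was the 1 gene of the 4 with an unadjusted p under 0.05, as were 19.2% of all genes. The fertility differences were not shown to differ between the tissues. For that test the share of all genes called was 0%, and 16.3% had an unadjusted p under 0.05. DESeq2 called 135 genes there (0.91%) and limma-voom 1675 (11.3%), and none of the 4 was among them. The T minus Co value was −0.17 for ISG15, −0.70 for MX1 and 0.23 for RSAD2 (edgeR adjusted p = 0.933, 0.641 and 0.887). For OAS2 it was −2.63 (SE 1.19, unadjusted p = 0.0485, edgeR adjusted p = 0.305), and −0.93 without Co-H 2.

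**Figure D2:**
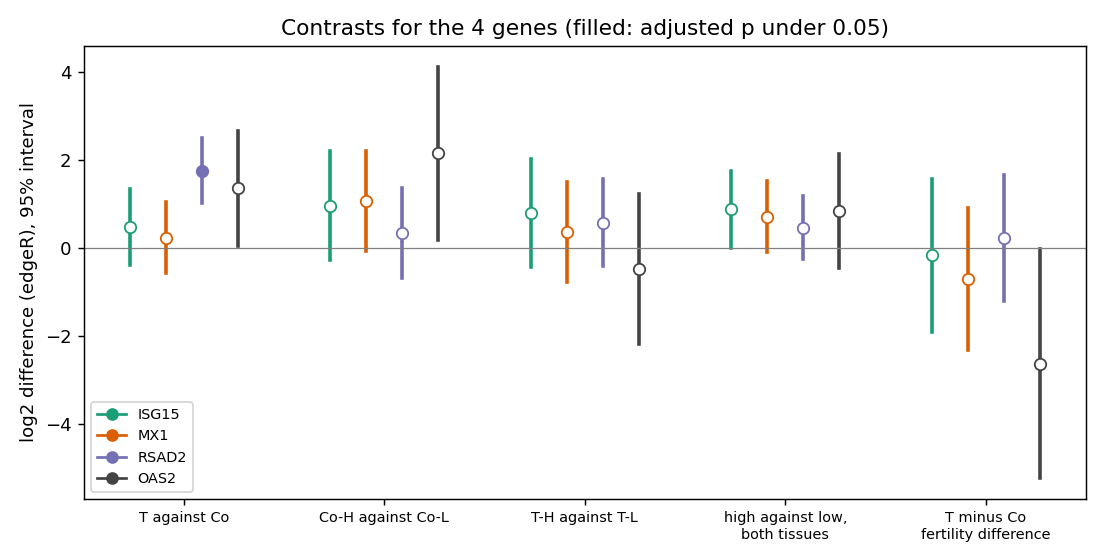
Log2 differences from the edgeR fit on all 12 libraries, with their 95% intervals as vertical lines, for the 4 genes in 5 contrasts. The filled point marks the only called value, RSAD2 in T against Co at 1.76, and the widest intervals belong to OAS2.

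The last question was whether the 4 genes vary together over the libraries of a tissue. In the Co tissue ISG15, MX1 and RSAD2 did so closely. ISG15 and MX1 put the 6 libraries in the same order, with Co-H 2 highest, followed by Co-H 1, Co-L 1, Co-L 3 and Co-L 2, and Co-H 3 lowest. RSAD2 gave the same order except that Co-L 1 and Co-H 1 changed places, at 19.3 and 18.9 CPM. OAS2 also had Co-H 2, Co-H 1 and Co-L 1 at the top and differed in the order of the 3 libraries with the fewest counts, where Co-L 2 was lowest. Co-H libraries stood at both ends of this order and the Co-L libraries in between, so it did not follow the fertility groups. In the same order, from highest to lowest, the libraries had 17852552, 12665680, 16745436, 13373236, 17798119 and 12702533 counts in total. The part of depth in the shared order was not tested.

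**Figure D3:**
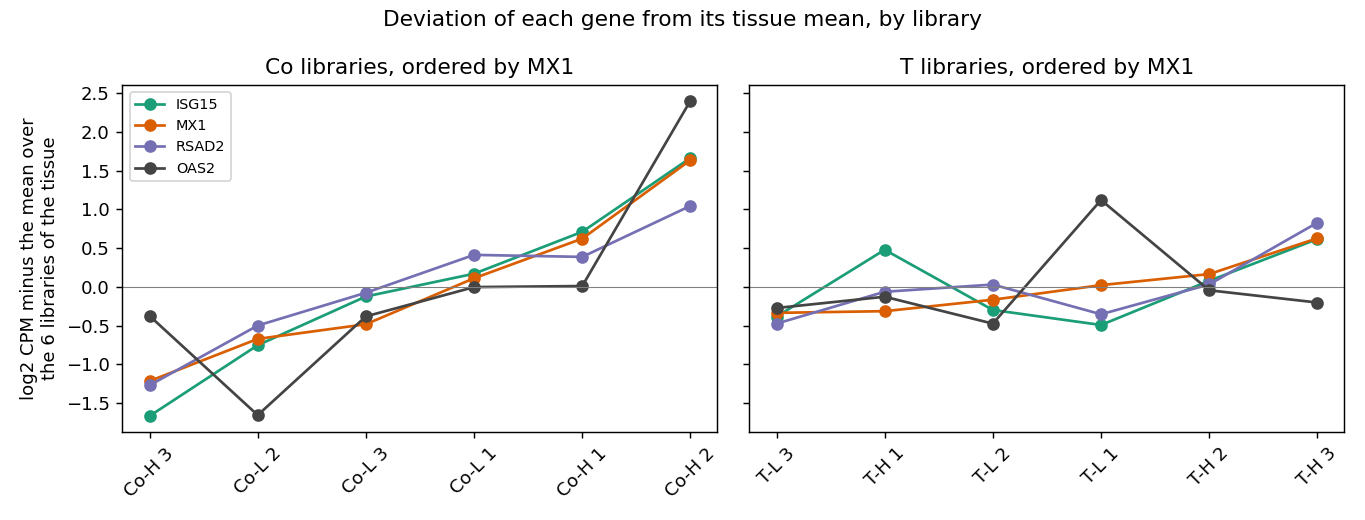
Log2 CPM of each gene minus its mean over the 6 libraries of the tissue, with libraries ordered by MX1 within each tissue. In Co the lines of ISG15, MX1 and RSAD2 climb together from Co-H 3 to Co-H 2, and in T OAS2 peaks at T-L 1 while ISG15 rises at T-H 1 without MX1.

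Over the 6 Co libraries the log2 CPM of ISG15 and RSAD2 had a Pearson's r of 0.981 (exact permutation p = 0.00278, adjusted p = 0.0167) and a Spearman's rho of 0.943 (exact permutation p = 0.0167, adjusted p = 0.0667). ISG15 and MX1 had an r of 0.978 (exact permutation p = 0.00278, adjusted p = 0.0167) and a rho of 1.0 (exact permutation p = 0.00278, adjusted p = 0.0333). MX1 and RSAD2 had an r of 0.944 (exact permutation p = 0.00694, adjusted p = 0.0278) and a rho of 0.943 (exact permutation p = 0.0167, adjusted p = 0.0667). P-values are two-sided and adjusted over 12 tests, 6 pairs of genes in each of the 2 tissues, separately for r and rho. Without Co-H 2 and Co-H 3, the 2 libraries farthest from the median, r was 0.954 for ISG15 and MX1, 0.921 for ISG15 and RSAD2, and 0.892 for MX1 and RSAD2, over the 4 libraries left.

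The Co pairs with OAS2 had r of 0.716 to 0.838 and none passed after adjustment with TMM-scaled CPM. The exact permutation p was 0.0375 for MX1 and OAS2 (r = 0.838, rho = 0.829 with p = 0.0583), 0.0708 for ISG15 and OAS2 (r = 0.773, rho = 0.829 with p = 0.0583), and 0.108 for RSAD2 and OAS2 (r = 0.716, rho = 0.771 with p = 0.103). Their adjusted p for r was 0.0972, 0.121 and 0.163. Their r moved with the libraries left out: it was 0.433 to 0.499 without Co-H 2 and 0.940 to 0.965 without Co-H 3. Without both, the 2 libraries farthest from the median of the other gene, it was 0.905 for ISG15 and OAS2, 0.784 for MX1 and OAS2, and 0.951 for RSAD2 and OAS2, over 4 libraries with 1 to 8 counts of OAS2. Without Co-H 2 and Co-L 2, the 2 farthest from the OAS2 median, these r were 0.754, 0.889 and 0.777. With CPM of the library total without TMM factors, MX1 and OAS2 passed (r = 0.885, exact permutation p = 0.0139, adjusted p = 0.0417). With the values centred within each fertility group, r was 0.989 for ISG15 and MX1, 0.992 for ISG15 and RSAD2, and 0.990 for MX1 and RSAD2. Each was at 0.0278, the smallest exact permutation p that 36 arrangements within groups allow, and none passed over the 12 tests (adjusted p = 0.0833).

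Among the 3 well-counted genes, few other genes followed a member as closely in Co. Among the 14797 genes with a defined r, 0.0203% had an r with ISG15 at least as high as that of RSAD2, and 0.0338% at least as high as that of MX1. For RSAD2, ISG15 was the gene with the rank 2, and for MX1, ISG15 had the rank 11 and RSAD2 the rank 25. Many more genes followed OAS2 as closely as the members did: for OAS2, MX1 had the rank 137, ISG15 the rank 286 and RSAD2 the rank 529, or 3.58% of genes. The genes whose Co pattern was most like the 4, by mean r over the 6 libraries, were ENSBTAG00000016656 with a mean r of 0.949 (0.863 to 0.984 with the single members) and ENSBTAG00000016661 with 0.947 (0.882 to 0.993). These ranks describe 6 shared libraries and are no test. The 4 genes also varied more than most genes in Co: the SD of log2 CPM around the group means was 1.26 for ISG15, 1.06 for MX1, 0.90 for RSAD2 and 1.23 for OAS2, above that of 96.1%, 94%, 91.3% and 95.8% of all genes tested, whose median was 0.31.

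In endometrium no pair passed after adjustment. MX1 and RSAD2 had an r of 0.833 (exact permutation p = 0.0486, adjusted p = 0.0972) and a rho of 0.829 (exact permutation p = 0.0583, adjusted p = 0.117). ISG15 and RSAD2 had an r of 0.778 (exact permutation p = 0.0458, adjusted p = 0.0972) and a rho of 0.771 (exact permutation p = 0.103, adjusted p = 0.154). ISG15 and MX1 had an r of 0.491 (exact permutation p = 0.331, adjusted p = 0.441) and a rho of 0.429 (exact permutation p = 0.419, adjusted p = 0.559). T-H 3 was the highest library for these 3 genes, at 54.3 CPM for ISG15, 195 CPM for MX1 and 95.4 CPM for RSAD2. Without T-H 3 and T-L 3, the 2 libraries farthest from the MX1 median, the r of MX1 and RSAD2 was −0.12, so this relation rests on those libraries.

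ISG15 separated the T libraries by fertility, so its pooled r with another gene mixes the group difference with the spread inside the groups. Centred within fertility groups, the r in T was 0.142 for ISG15 and MX1 (exact permutation p = 0.944), 0.627 for ISG15 and RSAD2 (exact permutation p = 0.472) and 0.780 for MX1 and RSAD2 (exact permutation p = 0.278). OAS2 had r of −0.372 with ISG15, 0.098 with MX1 and −0.341 with RSAD2 in T (exact permutation p = 0.583, 0.856 and 0.414). Centred, these r were −0.391, 0.251 and −0.251 (exact permutation p = 0.0278, 0.472 and 0.667). The value for ISG15 is the smallest that 36 arrangements allow, reached here at a low r, and it did not pass (adjusted p = 0.0833). T-L 1 was the library with the most OAS2 and the least ISG15. Without T-L 1 the uncentred r were 0.569, 0.267 and 0.108.

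In T the members were not among each other's closest genes: 1.87% of genes had an r with MX1 at least as high as that of RSAD2, and 17.6% had an r with ISG15 at least as high as that of MX1. The genes most like the 4 in T were ENSBTAG00000006955 with a mean r of 0.653 (0.254 to 0.864) and ENSBTAG00000035584 with 0.652 (0.167 to 0.871), over 6 libraries. Spread around the group means was nearer to that of other genes, above 45.3% of them for ISG15, 70.6% for MX1, 74.4% for RSAD2 and 88.2% for OAS2. Whether the correlations differ between the tissues was not tested.

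**Figure D4:**
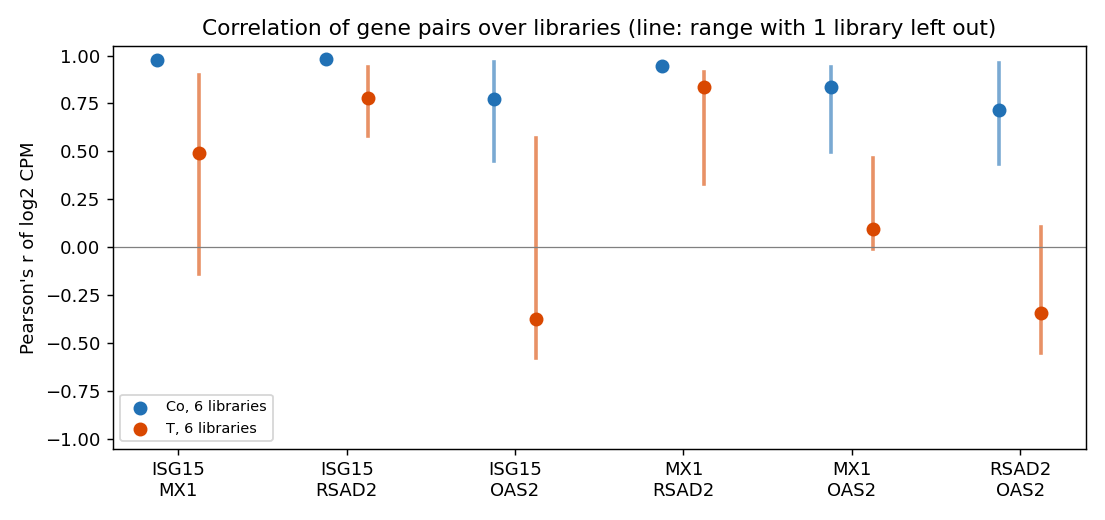
Pearson's r of log2 CPM for the 6 pairs of genes over the 6 libraries of each tissue, with lines for the range when 1 library is left out. The 3 Co pairs without OAS2 sit between 0.944 and 0.981 with short lines, whereas lines in T cross 0 for 4 of the 6 pairs.

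A ratio of 2 genes inside a library does not depend on how libraries are scaled. These ratios were chosen after the levels had been seen, and their size also depends on transcript length, so they are compared between libraries only. For each count of RSAD2 there were 1.22, 1.21 and 1.39 counts of ISG15 in the Co-L libraries and 1.80, 2.21 and 1.09 in the Co-H libraries, against 0.598, 0.524 and 0.701 in T-L and 0.960, 0.681 and 0.569 in T-H. All Co libraries lay above all T libraries. RSAD2 by itself had all T libraries above all Co libraries, as was so for 19.7% of all genes. Ratios to RSAD2 are therefore not independent of its level. The log2 ratio was 0.53 ± 0.39 in Co and −0.60 ± 0.31 in T (SD over n = 6 libraries), a T minus Co difference of −1.13 (exact permutation p = 0.00216, two-sided, adjusted over 6 ratios p = 0.00649).

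The ratio of MX1 to RSAD2 was 5.23, 5.75 and 4.87 in the Co-L libraries, 7.59, 9.67 and 6.79 in the Co-H libraries, 3.05, 2.05 and 2.59 in T-L and 1.97, 2.58 and 2.04 in T-H. Its log2 value was 2.69 ± 0.37 in Co and 1.23 ± 0.25 in T, a difference of −1.46 (exact permutation p = 0.00216, adjusted p = 0.00649). The value of 0.00216 is the smallest p that 6 against 6 libraries allow. Relative to ISG15 and to MX1, RSAD2 was thus higher in every T library than in any Co library. The ratio of MX1 to OAS2 was also lower in T, by a log2 difference of −1.42 (exact permutation p = 0.0173, adjusted p = 0.0346), with overlap between the tissues. It did not pass when any of 9 libraries was left out, with a difference of −1.02 without Co-L 2, which held 1 count of OAS2 (exact permutation test, adjusted p = 0.0736).

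The ratio of ISG15 to MX1 was 0.161 to 0.286 in Co and 0.196 to 0.279 in 5 of the T libraries, and 0.486 in T-H 1. Its log2 difference between T and Co was 0.33 (exact permutation p = 0.136, adjusted p = 0.164). Between fertility groups, the ratio of MX1 to RSAD2 was higher in every Co-H library than in any Co-L library, Co-H 3 included, with a log2 difference of 0.59 (exact permutation p = 0.1, the smallest that 3 against 3 libraries allow). The ratio of RSAD2 to OAS2 was 34.9, 135 and 35.0 in the Co-L libraries and 33.8, 8.42 and 15.0 in the Co-H libraries. These groups were parted by less than the counting error of 4 to 8 OAS2 counts, and the value of 135 rests on 1 count. In T all 6 ratios overlapped between the fertility groups. In Co 2 of the 6 ratios did not overlap, where 23.1% of single genes showed no overlap between Co-H and Co-L. Shares of non-overlap or of called ratios over all pairs of genes were not computed.

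**Figure D5:**
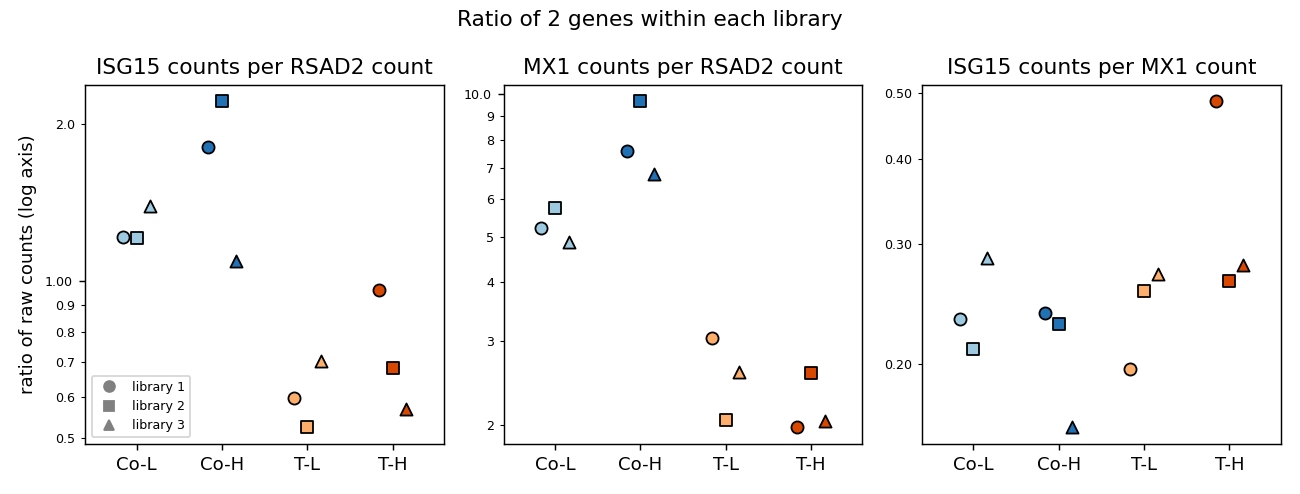
Ratios of raw counts of 2 genes within each library, on log axes, with 1 point per library and the marker shape giving the library number. ISG15 and MX1 per RSAD2 count are higher in all Co than in all T libraries, and T-H 1 stands apart in ISG15 per MX1 at 0.486. MX1 per RSAD2 is higher in the 3 Co-H than in the 3 Co-L libraries. The exact permutation p of 0.1 is the smallest that 3 against 3 libraries allow.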

How the data were processed

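Each library has 1 deposited file of unnormalized counts per cattle Ensembl gene, per the file headers. Bowtie 0.12.2 is named for every library in the submitters' processing notes. They name bosTau8, a cattle build, for 7 of the libraries and leave the build of 5 open. The sources used here do not give the counting tool, annotation, strand setting or filters. Sheep reads counted on cattle genes could be undercounted where the species differ, to a degree that can vary between genes.

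A blank line in 1 file was left out, and the first gene of T-H 3 was recovered from its header line. None of the identifiers (0 of 24616) matched the sheep RefSeq table, so the planned list of other interferon pathway genes and the cell type markers were not analysed, and neither coordinates nor sequences are given. The 4 genes and the tests were chosen with earlier results of these data known. The genes named beside them are, per tissue, the 2 with the highest mean r with the 4.

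Counts were analysed with edgeR 4.0.16 in R 4.3.3. The filter was filterByExpr at a minimum count of 10, leaving 14839 genes. Scaling was by TMM (trimmed mean of M values). All 12 libraries entered a quasi-likelihood fit with 1 mean per group, with Benjamini-Hochberg adjustment over all genes and calls under 0.05. Standard errors and 95% intervals come from that fit. Correlations used log2 CPM with a prior count of 2 and all 720 pairings of 6 libraries. Within-library ratios used raw counts. Intervals of single counts cover counting error only. Replicate counts differed by more than sampling noise, with a chi-square per degree of freedom of 15.0 to 114 over 12 pairs. The fit and correlation steps were tested on simulated data. Of 200 simulated 2-fold changes the fit recovered 60% in T against Co, 27.5% in Co-H against Co-L and 27% in T-H against T-L. Of 4-fold changes it recovered 94.5%, 80% and 82.5%. The changed genes were drawn from those with a mean count of at least 20, with 1 estimate of spread for T and Co. In Co the 4 genes spread more than 91.3% to 96.1% of all genes tested. The recovered shares may therefore be too high for them there. A 2-fold difference by fertility would thus most often be missed. Alternatives were other scalings, filters, DESeq2 1.42.0, limma 3.58.1 (voom), single-tissue fits, a replicate block and leaving out each library.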

Additional observations from a re-analysis of the deposited data

Results flagged for a closer look

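Over the 6 libraries of a tissue, a library was marked when its gap to the nearest other library was a larger share of the whole range than Dixon's 95% criterion allows. This was applied to the 4 levels in CPM and the 6 ratios in both tissues, without taking logs, and 7 of 20 were marked. The criterion marks about 1 in 20 by chance only where values are normally distributed. Skewed CPM and ratios can be marked more often, so the number marked was not set against chance. The ratios share their counts with the levels, so the marks are not independent.

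T-H 3 was marked for RSAD2, at 95.4 CPM against 38.6 to 54.9 CPM in the other T libraries. Co-H 2 was marked for OAS2, at 3.56 CPM against 0.0755 to 0.560 CPM in the other Co libraries, and T-L 1 for OAS2, at 3.99 CPM against 1.22 to 1.70 CPM in the other T libraries. Co-H 2 was the highest Co library for ISG15 and MX1 too, at 66.2 and 290 CPM, but was not marked there. T-L 1, in contrast, had the lowest ISG15 level in T, at 25.1 CPM.

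T-H 1 was marked for the ratio of ISG15 to MX1, at 0.486 against 0.196 to 0.279 in the other T libraries. It had the next to highest ISG15 level in T and the next to lowest MX1 level. Co-L 2 was marked for the ratios of ISG15, MX1 and RSAD2 to OAS2, at 163, 776 and 135 against highest values of 61.0, 257 and 35.0 in the other Co libraries. These 3 ratios divide by a single count of OAS2.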

How the results depend on the processing

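RSAD2 was called higher in T against Co under every alternative run, with log2 changes of 1.55 to 2.04 when each library was left out. The number of the 4 genes called in that contrast was 1, and it was 2 in DESeq2, 2 with a replicate block within fertility and 1 to 3 with a library left out. The numbers in the titles are not stated to pair libraries, and correlations of deviations between same-numbered libraries were −0.287 to 0.249. Between Co-L and T-L they were 0.072, 0.092 and 0.138, each the highest for its Co-L library. Between Co-L and Co-H, groups of unlike fertility, they were 0.213, 0.019 and 0.249, the highest for Co-L 1 and Co-L 3. Between T-L and T-H they were −0.071, −0.020 and −0.287, and none was the highest. Between Co-H and T-H they were 0.005, −0.085 and −0.049, and none was the highest. Whether equal numbers mark shared animals was not tested. With a replicate block the RSAD2 change was 1.80, and with the replicate block within fertility OAS2 was called at 1.66 (edgeR adjusted p = 0.043). Of all 14839 genes tested in T against Co, 9341 were called with the replicate block and 8767 with the replicate block within fertility. The replicate block over all groups changed no call of the 4 genes in any contrast. No alternative called any of the 4 genes in the fertility contrasts, but OAS2 was not tested in the fit on Co alone. Calls over all genes in Co-H against Co-L were 709 and ranged from 0 to 4543 over the alternatives, with 4543 in limma-voom, 3110 without Co-H 1 and 2271 in DESeq2. They were 3 with no filter, 1 in the fit on Co alone and 0 with the replicate block. They were 0 to 7 without Co-L 2, Co-L 3, Co-H 2, Co-H 3 or any single T library. DESeq2 gave OAS2 no adjusted p for the T minus Co fertility difference.

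The number of Co pairs with a called r was 3 of 6. It was 4 with CPM of the unadjusted library total, where MX1 and OAS2 passed. It was 0 with centring within fertility groups, where few arrangements limit p. With a library left out it was 0 to 6: 0 without Co-L 3, 0 without Co-H 2 and 6 without Co-H 3. The r of the 3 Co pairs without OAS2 stayed between 0.931 and 0.997 in these settings. With a library left out, p was adjusted over the 6 pairs of its tissue alone, and otherwise over the pairs of both tissues. The counts with a library left out are therefore not comparable with the 3 of 6. They do not show how stable the calls are. Of the ratios, 3 were called in T against Co, and 2 or 3 with a library left out. The called ratios were not always the same. Without T-L 1 the ratio of ISG15 to MX1 passed (exact permutation test, adjusted p = 0.0433) and that of MX1 to OAS2 did not (adjusted p = 0.0649). The share of ratios called over all pairs of genes was not computed, where 64.4% of single genes were called.

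Signs changed with a library left out for values that were not called. Ranges were −0.22 to 0.77 for RSAD2 in Co-H against Co-L, −0.77 to 0.26 for OAS2 in T-H against T-L, and −0.002 to 1.23 for OAS2 over both tissues. For the T minus Co fertility difference they were −0.66 to 0.66 for ISG15, −1.16 to 0.08 for MX1 and −0.19 to 0.80 for RSAD2. In T the r ranged from −0.137 to 0.897 for ISG15 and MX1, −0.576 to 0.569 for ISG15 and OAS2, −0.00984 to 0.468 for MX1 and OAS2, and −0.550 to 0.108 for RSAD2 and OAS2. The T minus Co log2 ratio of RSAD2 to OAS2 ranged from −0.32 to 0.48. The cause was not tested. OAS2 had few counts in Co, with 13 over Co-L and 73 over Co-H, of which 62 were in Co-H 2.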
